A study of Mus musculus with 4 samples.

Results

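Goblet cells are the mucus-making cells of the colonic epithelium, and the 9 genes described here encode products of these cells other than mucins and antimicrobial proteins. They were chosen by symbol from the deposited count table, as Fcgbp, Clca1, Zg16, Tff3, Agr2, Spdef, Spink4, Bcas1 and Sytl2, and all 9 were found among its 46095 genes. Colon RNA depleted of ribosomal RNA was sequenced from 21-day-old C57BL/6 mice, in 2 libraries of wild-type tissue (WT) and 2 of genotype Esr2-/- (Esr2-KO). Esr2 is the gene of estrogen receptor β, and the comparison asks what its loss does to transcripts of the colon. The labels name neither the deleted part of Esr2, nor the sex, nor the stretch of colon taken, and whether each library stands for its own animal is not said. The series design speaks of triplicates, but the count table holds 2 libraries per genotype, and all of them were used.

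Goblet cells fill their granules with the gel-forming mucin Muc2 and a small set of other proteins, which are folded in the endoplasmic reticulum, stored and released to build the mucus layer that keeps bacteria off the epithelium. Fcgbp, Clca1 and Zg16 are major proteins of that layer besides the mucin, Tff3 is a trefoil peptide of mucosal repair, and Spink4 is a small inhibitor of serine proteases. Agr2 is a protein disulfide isomerase of the endoplasmic reticulum that mice need to make Muc2, and Spdef is an ETS transcription factor under which mouse goblet cells mature. Sytl2 is a synaptotagmin-like protein that binds Rab27 and docks secretory vesicles. Bcas1 serves as a marker of goblet cells and is better known from oligodendrocytes.

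RefSeq promoters (GRCm38.p6) were at hand for Fcgbp, Agr2 and Spdef only, and are shown for that reason. Agr2 was lower in both Esr2-KO libraries than in both WT libraries, and so were Fcgbp and Spdef by a small margin. For Spdef that order rested on few counts, 27 in WT 2 against 24 in Esr2-KO 1. Sytl2, for which no promoter was at hand, had the same order. Each run covers bases 250 to 21 before the annotated start, 5′ to 3′ on the strand of the gene, at chr7:28070986-28071215 (plus strand) for Fcgbp, chr12:35992675-35992904 (plus strand) for Agr2 and chr17:27728972-27729201 (minus strand) for Spdef. The RefSeq span of Spdef reaches 27731003, so its window lies inside that span, ahead of a start near the GENCODE limit of 27728955. Capitals mark the single arm of an estrogen response element (GGTCA, or TGACC on the other strand) and the E-box CAGCTG.
Fcgbp: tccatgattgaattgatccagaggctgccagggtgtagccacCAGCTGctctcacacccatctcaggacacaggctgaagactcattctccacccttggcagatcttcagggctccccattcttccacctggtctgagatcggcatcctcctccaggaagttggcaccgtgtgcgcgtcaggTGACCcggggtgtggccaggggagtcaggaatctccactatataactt
Agr2: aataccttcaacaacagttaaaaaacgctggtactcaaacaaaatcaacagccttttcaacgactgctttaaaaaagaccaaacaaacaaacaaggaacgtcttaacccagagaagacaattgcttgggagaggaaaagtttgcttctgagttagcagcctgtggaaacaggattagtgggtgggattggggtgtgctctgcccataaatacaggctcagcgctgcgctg
Spdef: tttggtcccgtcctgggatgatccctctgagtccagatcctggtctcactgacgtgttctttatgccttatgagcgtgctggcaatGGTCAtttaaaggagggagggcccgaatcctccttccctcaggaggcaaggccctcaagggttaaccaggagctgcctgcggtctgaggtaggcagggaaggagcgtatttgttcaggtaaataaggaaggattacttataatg
Both strands were searched. The single arm was found once in the Fcgbp window and once in the Spdef window, and 33.1% of 32851 RefSeq promoters held it in the same window. The whole palindromic element, which joins both arms with any 3 bases between GGTCA and TGACC, was in none of these 3 windows and in 0.0578% of all. The E-box was found once, in the Fcgbp window, against 11.8% of all promoters. The short core GGAT, which the Spdef protein prefers, occurred 2 times in Fcgbp, 2 times in Agr2 and 5 times in Spdef, and 71.7% of all promoters held it. These matches are letters in a window and no evidence of binding.

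The 4 libraries held between 30826790 and 33709643 counts. TMM factors, which scale each library to the bulk of its genes, were 1.08 and 1.04 in WT and 1.04 and 0.855 in Esr2-KO, and all levels below are CPM, the counts divided by these scaled totals and brought to the usual depth unit. An adjusted p under 0.05 was reached by 462 of the 17169 genes tested, which is 2.69%, and 48.3% of them were higher in Esr2-KO (29.9% with scaling by library totals and 24.5% with scaling by epithelial genes). A list of 42 genes of pancreatic acinar cells took 0.263% and 0.296% of the counts in WT 1 and WT 2 and 0.413% in Esr2-KO 1, but 21.6% in Esr2-KO 2. The number of these genes at 0 was 15, 16, 12 and 6 in that order. The members' comparisons are therefore given with and without Esr2-KO 2. Cela2a, a pancreatic elastase, stood at 11.1, 2.76, 83.2 and 43695 CPM. The summed level of 6 homeobox genes of the posterior gut was 99.5 and 201 CPM in WT against 811 and 921 CPM in Esr2-KO. A list of 15 epithelial markers, among them Epcam, Cdh1 and Krt8, summed to between 13901 and 15632 CPM per library, with none at 0. The one gene of that list that passed was Cdx2, an intestinal transcription factor, which fell from 199 and 165 CPM to 60.9 and 27.9 CPM (-2.03 ± 0.34, edgeR adjusted p = 0.0373, but 0.105 without WT 1 and 0.0565 without WT 2). Esr2 itself was counted 21 and 13 times in the WT libraries and 6 and 16 times in Esr2-KO 1 and Esr2-KO 2, too few to check the genotype, and the deleted part of the gene is not known.

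Together the 9 goblet products took 2.42%, 2.16%, 2.05% and 1.27% of the counts in WT 1, WT 2, Esr2-KO 1 and Esr2-KO 2. The 95% Wilson intervals of these shares, which cover counting error only, ran from 2.410 to 2.421, 2.150 to 2.160, 2.043 to 2.053 and 1.265 to 1.272. The share in Esr2-KO 1 was little below that of WT 2, and that in Esr2-KO 2 was the lowest. The total of Esr2-KO 2 includes the 21.6% in pancreatic acinar genes, which lowers the share of all other genes there. In TMM-scaled CPM the 9 genes summed to 22420 and 20646 in WT, 19751 in Esr2-KO 1 and 14833 in Esr2-KO 2. Clca1 made up 42.7%, 44.7% and 48.0% of the members' counts in the first 3 libraries and 22.3% in Esr2-KO 2. Zg16 held 25.5%, 24.6% and 26.3% in those 3 libraries and 57.6% in Esr2-KO 2. Without Zg16 the summed level of the other 8 was 16701, 15573 and 14563 CPM in the first 3 and 6289 CPM in Esr2-KO 2. In bulk tissue, fewer goblet cells and less RNA per goblet cell cannot be told apart.

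**Figure D1:**
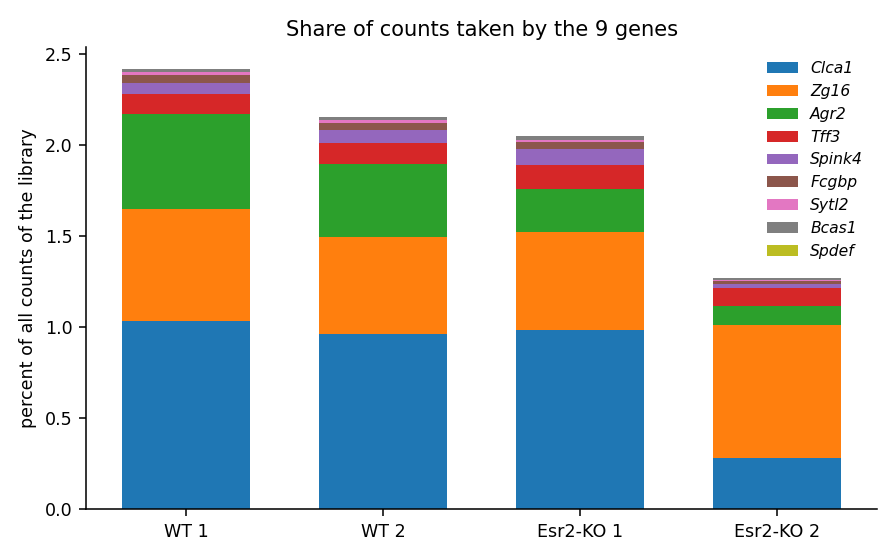
Stacked bars give the percent of all counts of each library (vertical axis, from 0) taken by each of the 9 genes, for the 2 WT and the 2 Esr2-KO libraries. The bar of Esr2-KO 2 reaches 1.27%, and Zg16 is its largest block, whereas Clca1 is the largest in the other libraries. All counts of Esr2-KO 2 include 21.6% in pancreatic acinar genes. Spdef is too low to be seen.

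Per length of annotated exon, several of these genes belonged to the most abundant transcripts of WT colon. Zg16 ranked 3 among 33980 genes with a GENCODE length, at a WT mean of 4293 CPM per kb. Agr2 ranked 6 (3365 CPM per kb), Clca1 ranked 9 (2491), Tff3 ranked 10 (2157) and Spink4 ranked 17 (1343). Bcas1 and Fcgbp followed at ranks 1307 and 1418, with 39.4 and 36.3 CPM per kb, and Sytl2 at 4270 with 10.8. Spdef was far lower than the products it is known to act on, at rank 13849 with 0.461 CPM per kb. The sources used here do not name the annotation the authors counted on; these lengths come from GENCODE M21 and the ranks are approximate.

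In Esr2-KO 1 the goblet products lay on both sides of the WT mean, with log2 ratios from -0.92 (Agr2) to 0.44 (Bcas1). Clca1 (0.01), Fcgbp (-0.05) and Zg16 (-0.05) were closest to it. In Esr2-KO 2 the goblet products parted into a group that was lower and a group that was not. No member passed the threshold over both Esr2-KO libraries, 0 of 9 against 2.69% of all genes, by edgeR's quasi-likelihood test, and 2 of 9 had an unadjusted p under 0.05, as did 20.6% of all genes. DESeq2 called 1 of the 9 (Sytl2) and 9.83% of all genes, limma-voom called 0 and 3.53% of all genes, and edgeR without the low-count filter called 2 (Agr2 and Sytl2) and 7.51% of all genes. The median log2 fold change of the members was -0.55, beside -0.00 over all genes tested. Fitted against WT alone, Esr2-KO 1 gave 0 calls among the 9 (2.77% of all genes were called, 1.50% lower and 1.27% higher), while Esr2-KO 2 gave 4 lower and 0 higher (5.68% and 4.35% of all genes were called lower and higher). In these fits the single Esr2-KO library is assumed to vary like the WT pair, and they share both WT libraries. By more than 1 log2 unit, 0 members lay below the WT mean in Esr2-KO 1 (5.87% of all genes) and 5 in Esr2-KO 2 (9.60% of all genes). Taken against the WT mean, the members' median log2 ratio was -0.05 for Esr2-KO 1, and for Esr2-KO 2 it was -1.11. In 4 members both Esr2-KO libraries lay below both WT libraries, against 27.7% of all tested genes, and in 1 member both lay above, against 27.0%.

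**Figure D2:**
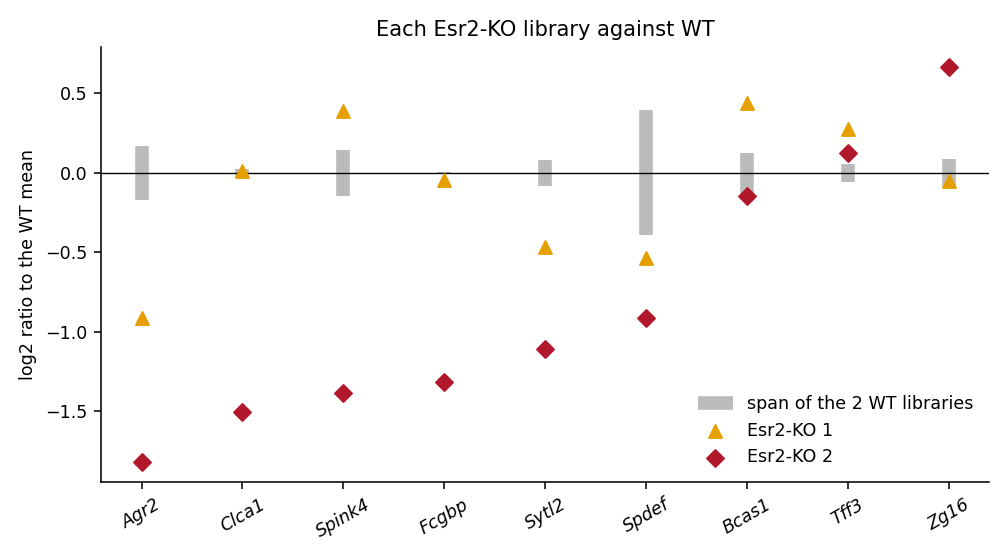
The vertical axis is the log2 ratio of each Esr2-KO library to the mean log2 CPM of WT, for the 9 genes in order of Esr2-KO 2, and grey bars span the 2 WT libraries. Esr2-KO 1 lies between -0.54 and 0.44 for every gene except Agr2 (-0.92), while Esr2-KO 2 lies between -1.82 and -0.92 for 6 genes and at 0.67 for Zg16.

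The 3 major proteins of the mucus layer besides the mucin did not share 1 pattern, since Clca1 and Fcgbp had their lowest level in Esr2-KO 2 and Zg16 its highest. Clca1, which lies on chromosome 3 from 145003817 to 145032776 (GRCm38, minus strand) and encodes a secreted protease-like protein that acts on mucus, stood at 9579.9 and 9235 CPM in WT, 9476 CPM in Esr2-KO 1 and 3312 CPM in Esr2-KO 2. Esr2-KO 1 thus lay between the WT libraries and Esr2-KO 2 stood 2.84-fold below their mean. The edgeR estimate over both Esr2-KO libraries was a log2 fold change of -0.56 ± 0.47 (SE, 2 libraries a group) and edgeR's adjusted p was 0.549, and its sign turned without Esr2-KO 2 (0.02). The fit of Esr2-KO 2 alone gave an adjusted p of 0.0645.

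Fcgbp, a very large protein of von Willebrand type domains that is bound up with the mucin (chromosome 7 from 28071236 to 28120862, plus strand), followed the same pattern. It stood at 379 and 383 CPM in WT, 369.0 CPM in Esr2-KO 1 and 153 CPM in Esr2-KO 2. The groups did not overlap, but Esr2-KO 1 lay a mere 0.05 log2 units below the WT mean. The log2 fold change was -0.55 ± 0.37 with an adjusted p by edgeR of 0.451, and -1.32 ± 0.20 with an adjusted p of 0.00255 for Esr2-KO 2 alone, where it passed. For Esr2-KO 1 alone it was -0.04 with an adjusted p of 0.957.

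Zg16, a lectin-like protein that binds the wall of Gram-positive bacteria, lies on chromosome 7 from 127050156 to 127087328 (minus strand). It stood at 5719 and 5073 CPM in WT, 5188 CPM in Esr2-KO 1 and 8544 CPM in Esr2-KO 2. It was the one member whose Esr2-KO 2 level exceeded all other libraries, and its 225246 counts there were also the largest number before any scaling. Its log2 fold change was 0.35 ± 0.31 (edgeR adjusted p = 0.569), 0.67 ± 0.40 for Esr2-KO 2 alone (adjusted p = 0.335) and -0.05 for Esr2-KO 1 alone (adjusted p = 0.968). Zg16 was first described in rats, in the zymogen granules of pancreatic acinar cells, and Esr2-KO 2 is the library in which pancreatic genes took 21.6% of the counts. The part of pancreatic RNA in the Zg16 level was not tested.

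**Figure D3:**
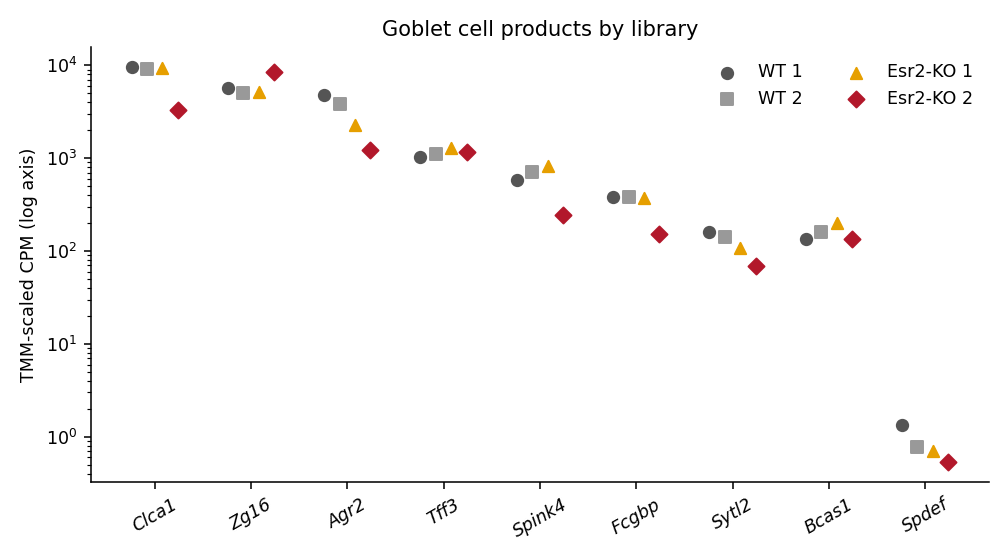
The level of each gene in TMM-scaled CPM (log axis) is shown for the 4 libraries, in order of the WT mean. The red diamonds of Esr2-KO 2 fall below the other libraries for Clca1, Agr2, Spink4, Fcgbp, Sytl2 and Spdef and above them for Zg16.

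The small secreted peptides Spink4 and Tff3 also differed from each other. Spink4 (chromosome 4 from 40920052 to 40931395, plus strand) stood at 576 and 705 CPM in WT, 833 CPM in Esr2-KO 1 and 244 CPM in Esr2-KO 2. One Esr2-KO library was therefore above both WT libraries and the other below both. The log2 fold change over both was -0.25 ± 0.50 with an adjusted p by edgeR of 0.820. It was 0.38 ± 0.22 for Esr2-KO 1 alone (adjusted p = 0.4997) and -1.39 ± 0.24 for Esr2-KO 2 alone, which passed with an adjusted p of 0.00532. The step from Esr2-KO 1 to Esr2-KO 2, -1.77 on the log2 scale, was the largest among the 9 genes.

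Tff3 (chromosome 17 from 31125306 to 31129646, minus strand) varied least. Its levels were 1022 and 1106 CPM (WT) against 1287 and 1157 CPM (Esr2-KO), so that both Esr2-KO libraries lay above both WT libraries. That order held with TMM scaling but not with library totals, where Esr2-KO 2 was 0.19 log2 units below the WT mean. On the log2 scale the fold change was 0.20 ± 0.20 with an adjusted p by edgeR of 0.607, and the adjusted p was 0.656 for Esr2-KO 1 alone and 0.806 for Esr2-KO 2 alone.

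Agr2 was lower in both Esr2-KO libraries and had the largest difference of the 9. The gene lies on chromosome 12 from 35992907 to 36004087 (plus strand), the chromosome that also carries Esr2 from 76120419 to 76177259. It stood at 4848 and 3840.0 CPM in WT, 2287 CPM in Esr2-KO 1 and 1219 CPM in Esr2-KO 2. The groups did not overlap, with Esr2-KO 1 1.89-fold and Esr2-KO 2 3.54-fold below the WT mean. Over both libraries the log2 fold change was -1.31 ± 0.35, and the edgeR adjusted p of 0.104 did not pass. Against WT, Esr2-KO 1 alone gave -0.92 ± 0.31 (adjusted p = 0.194) and Esr2-KO 2 alone -1.83 ± 0.39 (adjusted p = 0.0145, past the threshold). Without the low-count filter it also passed (0.00287), and over all 14 alternatives the adjusted p ran from 0.00287 to 0.297 while the sign stayed negative.

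Muc2, the mucin whose making depends on Agr2, had the libraries in the same order, with 1945 and 1548 CPM in WT, 818 CPM in Esr2-KO 1 and 346 CPM in Esr2-KO 2 (-1.59 ± 0.40, edgeR adjusted p = 0.0945). The ratio of Agr2 to Muc2 CPM was 2.49 and 2.48 in WT, 2.80 in Esr2-KO 1 and 3.52 in Esr2-KO 2. The ratio of Tff3 to Muc2 moved much further, from 0.525 and 0.714 in WT to 1.57 and 3.34. That of Clca1 was 4.93 and 5.96 in WT, 11.6 in Esr2-KO 1 and 9.56 in Esr2-KO 2. The goblet products thus kept no fixed proportion to the mucin across these libraries.

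Sytl2, the vesicle docking protein, was the other member lower in both Esr2-KO libraries by a clear margin. It lies on chromosome 7 from 90302252 to 90410719 (plus strand) and stood at 159 and 142 CPM in WT, 109 CPM in Esr2-KO 1 and 69.8 CPM in Esr2-KO 2. The groups did not overlap, and Esr2-KO 2 was lower than Esr2-KO 1. The log2 fold change was -0.75 ± 0.21 with an adjusted p by edgeR of 0.116. It passed for Esr2-KO 2 alone (-1.11 ± 0.17, adjusted p = 0.00288), with DESeq2 (0.00650) and without the low-count filter (0.00302), but not for Esr2-KO 1 alone (-0.46 ± 0.16, adjusted p = 0.224). Over all 14 alternatives the adjusted p ran from 0.00288 to 0.383.

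Spdef, the transcription factor, was close to the limit of counting. It lies on chromosome 17 from 27714352 to 27728955 (minus strand) and was counted 49, 27, 24 and 14 times in WT 1, WT 2, Esr2-KO 1 and Esr2-KO 2, or 1.35, 0.776, 0.702 and 0.531 CPM. Both Esr2-KO libraries were below both WT libraries, but the WT libraries themselves differed by 0.79 on the log2 scale. Its log2 fold change was -0.78 ± 0.54 with an adjusted p by edgeR of 0.462, and no difference could be detected with so few counts. No exon of another gene in GENCODE overlaps those of Spdef.

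Bcas1 (chromosome 2 from 170346991 to 170427845, minus strand) gave no call in any fit. Its levels were 136 and 161 CPM in WT, 201 CPM in Esr2-KO 1 and 134 CPM in Esr2-KO 2, so that the WT libraries lay between the Esr2-KO libraries. Over both libraries the log2 fold change was 0.17 ± 0.21 (edgeR adjusted p = 0.689), and its sign turned in Esr2-KO 2 alone (-0.15). Antisense genes cover 474 of the 3775 exon bases of Bcas1, and since the sources used here do not say whether counting used the strand, their reads cannot be told apart from its own.

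Set against epithelial markers in place of the whole library, the pattern was the same. Relative to the summed CPM of the epithelial markers without Elf3 and Lgals4, which other lists hold, Agr2 stood at 44.4% and 39.1% in WT, 20.8% in Esr2-KO 1 and 11.1% in Esr2-KO 2. Clca1 stood at 87.6%, 94.0%, 86.0% and 30.2% in the same order, and Zg16 at 52.3%, 51.7%, 47.1% and 77.8%. The lower levels in Esr2-KO 2 were thus as large against epithelial transcripts as against all transcripts.

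Other genes that goblet cells express were also lower in part. Of 22 such genes outside the 9, 3 fell and 0 rose over both Esr2-KO libraries, where 1.39% and 1.30% of all genes did, with a median log2 fold change of -0.51. Gcnt3, which branches the sugar chains of mucins, stood at 269 and 286 CPM (WT) against 89.5 and 63.6 CPM (Esr2-KO) (-1.86 ± 0.18, edgeR adjusted p = 0.0153). The chemokine Ccl9 stood at 79.2 and 69.6 against 30.2 and 19.5 CPM (-1.58 ± 0.21, edgeR adjusted p = 0.0257, and 0.0704 without WT 1). The protease Bace2 stood at 81.5 and 77.0 against 46.4 and 30.8 CPM (-1.04 ± 0.20, edgeR adjusted p = 0.0491). The call of Bace2 ended without WT 1 (0.175), without WT 2 (0.101), with epithelial scaling (0.0563) and with a filter of 1 CPM (0.0505). For these 3 genes Esr2-KO 1 alone also passed against WT, with adjusted p values of 0.00315, 0.00649 and 0.0389. Best2, an anion channel of colonic goblet cells, had 241 and 707 counts in WT libraries against 2388 and 1819 in Esr2-KO libraries (2.37 ± 0.46, edgeR adjusted p = 0.0527). Best2 passed in 10 of the 14 alternatives, among them DESeq2 (0.0168), library totals (0.0111) and each fit that left out a library, and its log2 fold change was 1.77 without WT 1 and 3.40 without WT 2. Over the 22 genes, the median log2 ratio to WT was -0.34 for Esr2-KO 1 and -0.90 for Esr2-KO 2. Below the WT mean lay 14 genes in Esr2-KO 1 and 17 in Esr2-KO 2.

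**Figure D4:**
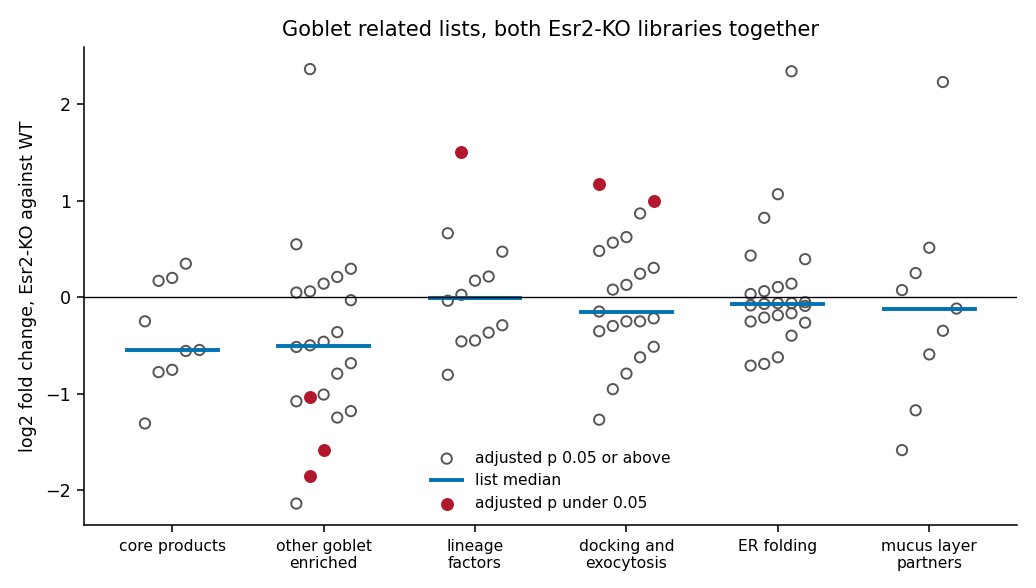
Each circle is the log2 fold change of Esr2-KO against WT (vertical axis) of 1 tested gene, by list, with filled circles past the adjusted p of 0.05 and blue lines at the list medians. The medians of the core products (-0.55) and of the other goblet enriched genes (-0.51) lie below 0, and that of the lineage factors lies at -0.01.

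Transcription factors of the goblet lineage gave 1 call over both Esr2-KO libraries. Among 12 such factors and regulators 1 rose and 0 fell, where 1.30% and 1.39% of all genes did, with a median of -0.01. An unadjusted p under 0.05 was reached by 6, against 20.6% of all genes. The median log2 ratio to WT was -0.035 for Esr2-KO 1 and 0.039 for Esr2-KO 2. The one that rose was Nfe2l3, at 1.98 and 2.36 CPM (WT) against 5.94 and 6.41 CPM (Esr2-KO) (1.51 ± 0.27, edgeR adjusted p = 0.0456), and this call ended without WT 1 (0.219), without WT 2 (0.108), without Esr2-KO 2 (0.0797), with epithelial scaling (0.0736) and with the replicate number as a block (0.0686). Atoh1, which commits cells to the secretory lineage, stood at 92.3 and 98.8 CPM (WT) against 75.4 and 64.6 CPM (Esr2-KO) (-0.45 ± 0.12, edgeR adjusted p = 0.112). Higher in both Esr2-KO libraries were Foxa2, a forkhead factor of gut epithelium, at 33.8 and 29.6 against 45.9 and 54.4 CPM (0.66 ± 0.14, edgeR adjusted p = 0.0649), and the ETS factor Elf3, at 306 and 345 against 456 and 448 CPM (0.47 ± 0.15, edgeR adjusted p = 0.146). Klf4, a factor of goblet differentiation in mice, was at 639 and 536 against 682 and 681 CPM, and Xbp1, a regulator of secretory capacity, at 364 and 333 against 315 and 394 CPM. Creb3l4 was at 51.2 and 53.0 against 37.7 and 21.8 CPM (-0.80 ± 0.24, edgeR adjusted p = 0.136), and Foxa3 at 65.7 and 60.3 against 58.8 and 38.8 CPM.

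In the machinery of granule docking and exocytosis, in which Sytl2 works, 2 genes passed. Of 21 tested genes 2 rose and 0 fell over both Esr2-KO libraries, where 1.30% and 1.39% of all genes did, with a median of -0.15. The median log2 ratio to WT was -0.005 for Esr2-KO 1 and -0.27 for Esr2-KO 2. Sytl1, a close relative of Sytl2, rose from 40.4 and 47.7 CPM to 96.9 and 102 CPM (1.18 ± 0.12, edgeR adjusted p = 0.0189), against the direction of Sytl2. Unc13b, which primes vesicles for fusion, rose from 33.8 and 27.3 to 53.7 and 68.5 CPM (1.001 ± 0.171, edgeR adjusted p = 0.0388). Its call ended without WT 1 (0.0785), without WT 2 (0.112), with library totals (0.0501), with epithelial scaling (0.0560) and with the replicate number as a block (0.0636). Sytl4 stood at 39.1 and 36.6 CPM (WT) against 21.3 and 10.1 CPM (Esr2-KO) (-1.27 ± 0.32, edgeR adjusted p = 0.0922). Rab27b, a GTPase that Sytl proteins bind, stood at 136 and 129 against 95.3 and 57.4 CPM (-0.79 ± 0.23, edgeR adjusted p = 0.120), and Rab27a at 101 and 98.2 against 98.4 and 72.9 CPM.

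Chaperones and folding enzymes of the endoplasmic reticulum, the compartment of Agr2, gave no call with edgeR's main settings over both Esr2-KO libraries. None of 24 tested passed there, and the median was -0.07. An unadjusted p under 0.05 was reached by 7, against 20.6% of all genes. Hspa5, the main chaperone there, stood at 578 and 451 CPM (WT) against 433 and 536 CPM (Esr2-KO). The disulfide isomerase Pdia6 was at 414 and 274 against 210.1 and 210.4 CPM (-0.71 ± 0.21, edgeR adjusted p = 0.128), and Herpud1, of the degradation pathway, at 114 and 128 against 164 and 264 CPM (0.82 ± 0.23, edgeR adjusted p = 0.111). Pdia6 passed with DESeq2 (0.0055) and with edgeR without the low-count filter (0.0116), and so did Herpud1 (0.00266 and 0.0018). Those settings called 9.83% and 7.51% of all genes. In Esr2-KO 2 the 24 genes had a median log2 ratio of 0.10 to WT, in the library with pancreatic transcripts, a tissue rich in these chaperones, and in Esr2-KO 1 a median of -0.25. The log2 ratio of Esr2-KO 2 to WT was 3.21 for Ero1lb, 1.63 for Sel1l, 1.13 for Herpud1 and 0.74 for Hyou1. Of the 24 genes, 18 lay below the WT mean in Esr2-KO 1 and 10 in Esr2-KO 2. Ero1lb, an oxidase of the disulfide pathway, stood at 10.99, 11.3 and 10.4 CPM in WT 1, WT 2 and Esr2-KO 1 and at 103 CPM in Esr2-KO 2. The part of pancreatic RNA in these levels was not tested.

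Partners in the mucus layer and the cytokine axis that acts on goblet cells gave no call with edgeR's main settings over both Esr2-KO libraries. Of 9 tested mucus layer genes 0 passed and 4 had an unadjusted p under 0.05, against 20.6% of all genes. The metalloprotease subunits Mep1b and Mep1a, which process the mucus, stood at 135 and 179 against 88.7 and 50.4 CPM (-1.17 ± 0.27, edgeR adjusted p = 0.0786) and at 431 and 465 against 306 and 288 CPM (-0.59 ± 0.15, edgeR adjusted p = 0.0875). Of 6 tested genes of the interleukin 13 and 4 axis 0 passed and 1 had an unadjusted p under 0.05, the receptor chain Il4ra (61.6 and 50.3 against 42.3 and 31.0 CPM, -0.61 ± 0.18, edgeR adjusted p = 0.135). Il13ra1 was at 164 and 135 against 147 and 99.1 CPM. With edgeR without the low-count filter, which called 7.51% of all genes, Mep1b (7.57e-05), Mep1a (0.0324) and Il4ra (0.0159) passed. The same genes passed with DESeq2 (0.000108, 0.000148 and 0.038), which called 9.83% of all genes. Mep1b also passed by edgeR with library totals (0.0429), and Mep1a with limma-voom (0.048). The median log2 ratio of the mucus layer genes to WT was -0.28 for Esr2-KO 1 and -0.03 for Esr2-KO 2. That of the cytokine axis was -0.14 and -0.225. Tgm3, a transglutaminase, stood at 145 and 629 against 1531 and 2106 CPM. Il13, Il4, Il5 and Il25 had too few counts to be tested.

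The relatives of the members gave 0 calls with edgeR's main settings over both Esr2-KO libraries among 13 tested. An unadjusted p under 0.05 was reached by 6, against 20.6% of all genes. The median log2 ratio to WT was -0.31 for Esr2-KO 1 and -0.50 for Esr2-KO 2. Clca4a stood at 762 and 240 CPM (WT) against 212 and 115 CPM (Esr2-KO), and Clca4b at 6.55 and 8.34 against 5.85 and 2.01 CPM. Agr3, the relative of Agr2, was at 1.16 and 1.81 CPM (WT) against 0.322 and 0.379 CPM (Esr2-KO) (-2.08 ± 0.53, edgeR adjusted p = 0.0951). Zan, which shares von Willebrand type domains with Fcgbp, was at 17.6 and 29.98 against 40.1 and 56.0 CPM (1.01 ± 0.28, edgeR adjusted p = 0.111). With edgeR without the low-count filter Agr3 (0.0319) and Zan (0.000809) passed. Zan also passed with DESeq2 (0.00355) and by edgeR with the replicate number as a block (0.0383). Among the chloride channel accessory family, Clca3b stood at 187 and 193 against 238 and 148 CPM. The family holds close copies on chromosome 3 that may share reads, and the values of Clca1 and its relatives are uncertain to that extent.

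The genes most like the members in pattern were sought among 5666 genes whose mean was 5 log2 CPM or more. The nearest to the members' median profile over the 4 libraries, by Euclidean distance of log2 CPM centred per gene, were Scin (0.178), Galnt5 (0.192), Pla2g4a (0.195), Aspn (0.205) and Nat2 (0.219). Scin, an actin-severing protein, stood at 325, 285, 266 and 161 CPM in WT 1, WT 2, Esr2-KO 1 and Esr2-KO 2. With 4 points per gene, many genes come close to any profile, and the order is a description.

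Genes of several other cell types also differed in level between these libraries. The summed level of 12 tuft cell genes was 132 and 153 CPM (WT) against 89.9 and 67.1 CPM (Esr2-KO), that of 13 enteroendocrine genes 793 and 920 against 632 and 618 CPM, and that of 10 immune genes 1384 and 1146 against 946 and 318 CPM. The median log2 fold change was -1.10 for the tuft, -0.61 for the enteroendocrine and -0.36 for the immune genes, beside -0.55 for the members. In all 12 tuft cell genes both Esr2-KO libraries lay below both WT libraries, against 27.7% of all genes, and 0 were called. Of the 13 enteroendocrine genes 3 fell and 0 rose, where 1.39% and 1.30% of all genes did. Absorptive colonocyte genes, 16 in all, summed to 12990 and 16605 against 10666 and 9846 CPM. Their median log2 fold change was 0.52, with 10 genes above 0 and 6 below. Of the 16 genes 3 rose and 3 fell, where 1.30% and 1.39% of all genes did. An unadjusted p under 0.05 was reached by 15, against 20.6% of all genes. Cyp2c55 fell from 2086 and 2260 CPM to 336 and 335 CPM (-2.69 ± 0.21, edgeR adjusted p = 0.0125). Saa1 rose from 449 and 628 CPM to 1714 and 1435 CPM (1.55 ± 0.24, edgeR adjusted p = 0.0322, but 0.0623 with library totals). Smooth muscle genes, 9 in all, summed to 6669 and 5157 against 5252 and 6642 CPM, without separation of the groups. None of these tuft, enteroendocrine, immune, colonocyte and smooth muscle genes was at 0 in any library, and the part of these cells in the goblet gene levels was not tested. Among genes of gut position, Hoxb13 rose from 72.8 and 153 CPM to 616 and 676 CPM (2.51 ± 0.34, edgeR adjusted p = 0.0257) and Hoxd12 from 0.220 and 0.517 to 9.56 and 14.8 CPM (5.04 ± 0.46, edgeR adjusted p = 0.0135). Goblet products are known to vary along the colon, and the part of position along the colon in the goblet gene levels was not tested.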

How the data were processed

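The deposited table gives counts per gene symbol, whole numbers without normalization. The submitters' processing notes name HISAT2 and the build mm10, and the sources used here do not give the counting program, annotation, strand setting or filters. RNA was extracted with Trizol, ribosomal RNA was removed and a directional kit was used, per the labels' protocols. Genes were kept by filterByExpr (minimum count 10, minimum total 15), scaled by TMM and compared by edgeR (version 4.0.16, under R 4.3.3; quasi-likelihood F test, two-sided, Benjamini-Hochberg over all genes tested, threshold 0.05, 2 residual degrees of freedom, or 1 where a library is left out). The standard error is the coefficient divided by the root of F. Log2 ratios of a single library use a prior count of 0.5. The common biological coefficient of variation was 0.233, and p-values measure the spread between these libraries, which may be technical. Chi-square over degrees of freedom between the libraries of a group was 39.7 for WT and 478 for Esr2-KO. Within each group, then, neither library was a repeat deposit of the other. Exon lengths and gene positions come from GENCODE M21 (GRCm38), the build of the alignment, and promoters from RefSeq. The procedure was tested on simulated data with the same dispersion in all libraries, a setting that leaves out a library like Esr2-KO 2. Alternatives were other scalings (DESeq2 size factors, upper quartile, totals, epithelial genes), pancreatic genes left out, other filters, DESeq2 1.42.0, limma-voom (limma 3.58.1), the replicate number as a block and each library left out. Members and lists were chosen with earlier results of these data known. Named genes are the 9 members, Esr2, Muc2, up to 4 called genes or else the 2 with the smallest p of each list, and the 5 most alike; from lists of other cell types mainly sums are given in place of genes. Cela2a, Atoh1, Foxa2, Foxa3, Elf3, Klf4, Xbp1, Creb3l4, Sytl4, Rab27a, Rab27b, Hspa5, Ero1lb, Sel1l, Hyou1, Tgm3, Clca3b, Clca4a, Clca4b, Tff1, Tff2 and Reg4 were named after their values were seen, and Epcam, Cdh1 and Krt8 as examples of their list.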

Additional observations from a re-analysis of the deposited data

How the results depend on the processing

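Over both Esr2-KO libraries, 462 genes passed with the main settings and 0 of the 9 members did. The number was 695 with library totals (29.9% of them higher, against 48.3%, where the median of all genes shifted to -0.17), 253 with epithelial scaling (24.5% higher), 1916 without a low-count filter and 1682 with DESeq2. Members called were 2 without the filter and 1 with DESeq2, where 7.51% and 9.83% of all genes with an adjusted p were called. Leaving out a library gave 165 to 1804 genes, the former without WT 1 and the latter without Esr2-KO 1, and 0 to 4 members, the 4 again without Esr2-KO 1; without WT 2, 65.9% of the 331 calls were higher. The cause of these shifts was not tested. The members' median log2 ratio of Esr2-KO 2 to WT was -1.11, -1.42 with library totals and from -1.24 to -1.03 without a WT library. Leaving out 1 library gave log2 fold changes from -1.50 to 0.017 for Clca1, -0.050 to 0.67 for Zg16, -1.39 to 0.38 for Spink4 and -0.15 to 0.44 for Bcas1, with the turn of sign without Esr2-KO 2 in the first 3 and without Esr2-KO 1 in Bcas1; it gave -1.42 to 0.35 for Esr2, with a positive sign without WT 1 (0.04) and without Esr2-KO 1, and -0.43 to 0.031 for Cnn1, a smooth muscle gene. No scaling or filter turned the sign of a member's log2 fold change over both libraries. The labels give both groups replicate numbers 1 and 2, but same-numbered libraries did not deviate together (correlation across genes -0.05), so the numbers were not taken as pairs; with the replicate number as a block 490 genes and 0 members passed. Spdef could not be tested with the filter of 1 CPM. At 14 to 49 counts a library, depth limits Spdef.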

Other observations

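Tff2, a trefoil peptide of stomach and duodenal glands and a relative of Tff3, had 101 and 42 counts in WT, 20 in Esr2-KO 1 and 13807 in Esr2-KO 2, or 2.78, 1.21, 0.585 and 524 CPM. Its level in Esr2-KO 2 accompanied the pancreatic transcripts of that library, while Tff1 had no count in any library. Reg4, a product of deep crypt secretory cells of the colon, stood at 18.8 CPM in WT 1 against 702 CPM in WT 2, 731 CPM in Esr2-KO 1 and 490 CPM in Esr2-KO 2, so that the WT libraries differed more from each other than WT 2 did from either Esr2-KO library. None of the 9 goblet products separated the WT libraries to that degree, with Spdef furthest apart at 0.79 on the log2 scale.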
